A study of Homo sapiens with 2 samples.

Results

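Axon guidance genes of 8 families were compared between A549 lung adenocarcinoma cells in spheroid culture and in monolayer culture. The families were the Eph receptors, the ephrins, the secreted class 3 semaphorins, the membrane-bound semaphorins, the plexins, the neuropilins, the Slits with the Robos, and the UNC5 netrin receptors. The members are a named list of 51 genes of these families, and 13 further genes of the same families were kept as a separate list. Of these, 50 were measured among the 19775 genes named on the arrays. EPHB2 was not analysed here, since no probe set carried it as its only gene. Each gene took its value from its probe set of highest mean log2 signal.

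For each culture 1 Affymetrix array of the type Human U133 plus 2.0 was read, so 2 arrays were compared and no value has a replicate. Monolayer cells grew attached for 12 days in DMEM with 10% FBS, penicillin, streptomycin and glutamine. Spheroid cells grew in suspension for 12 days in DMEM/F12 without serum, with N2 supplement, EGF at 20 ng/ml and bFGF at 10 ng/ml. The cultures thus differed at the same time in attachment, serum, basal medium, supplement and growth factors, which cannot be told apart, and neither can fewer cells of a type and less RNA per cell. The groups were read from the sample titles. A free-text note on both samples goes against the other labels and names the hepatoma line Huh7 and a compound, PGG. All values below compare these RNA samples and carry no p-value.

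Guidance ligands and their receptors were named for the steering of growing axons, but epithelial and tumor cells use them as well. Ephrins sit on one cell and bind Eph receptor tyrosine kinases on its neighbour, so the pair signals at cell contacts. Semaphorins bind plexins, whose cytoplasmic part acts on small GTPases of the Ras family, and most secreted class 3 semaphorins need a neuropilin beside the plexin. Slits bind Robo receptors, and UNC5 receptors bind netrins.

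Of the 8 families, the plexins had the largest share of members at least 2-fold higher in spheroid culture. These were PLXNC1, PLXNA3, PLXNA2 and PLXNB1, 4 of the 7 plexins above the floor (57.1%), beside 6.86% of all genes above it. The median log2 ratio of the family was 1.13, beside 0.036 over all genes above the floor. PLXNC1 was counted through its spheroid signal alone, and over the 6 plexins above the floor in both cultures the median was 0.67, with 3 of them at least 2-fold higher. SEMA4G was the other gene at least 2-fold higher, and NRP2, a neuropilin, was the one gene at least 2-fold lower. Of the 28 members above the floor outside the plexins, 1 (3.57%) passed the 2-fold limit upward and 1 (3.57%) downward. Over all genes above the floor these shares were 6.86% and 5.50%. The median log2 ratio of the 28 members was 0.03. The floor is the median signal of the array, 108 in the monolayer and 119 in the spheroids, and a signal under it was set to it before a ratio was taken.

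Of the 50 measured members, 35 (70.0%) exceeded the floor of 1 array or both, against 66.9% of all genes. In 28 of them both signals were above it, and 16 of these were higher and 12 lower in spheroid culture. Of all genes, 11528 had both signals above it, 5953 of them higher and 5575 lower. EPHA1, EPHB3, SEMA7A and PLXNC1 were above it in spheroid culture alone, and EFNB1, EFNB2 and UNC5C in monolayer culture alone. The other 15 were at the floor in both, namely EPHA3, EPHA7, EPHB1, EPHB6, SEMA3B, SEMA3D, SEMA3E, SEMA4A, SEMA5A, SEMA6A, SEMA6C, SEMA6D, PLXNB3, ROBO2 and SLIT2. A change in these genes was not detectable at this signal.

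In all, 5 of 35 members (14.3%) were at least 2-fold higher in spheroid culture, beside 6.86% of the 13229 genes above the floor. At least 2-fold lower was 1 of 35 (2.86%), beside 5.50% of all genes. At least 3-fold higher was 1 member, PLXNC1, beside 2.34% of all genes, and no member was at least 3-fold lower, beside 2.11%. The median log2 ratio was 0.094 over the members and 0.036 over all genes. Dividing each array by its median moved the count of members to 4 higher and 2 lower, and that of all genes from 908 higher and 728 lower to 693 higher and 961 lower. All 4 plexins had a mean signal under 500, where 9.18% of 5447 genes were at least 2-fold higher.

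**Figure D1:**
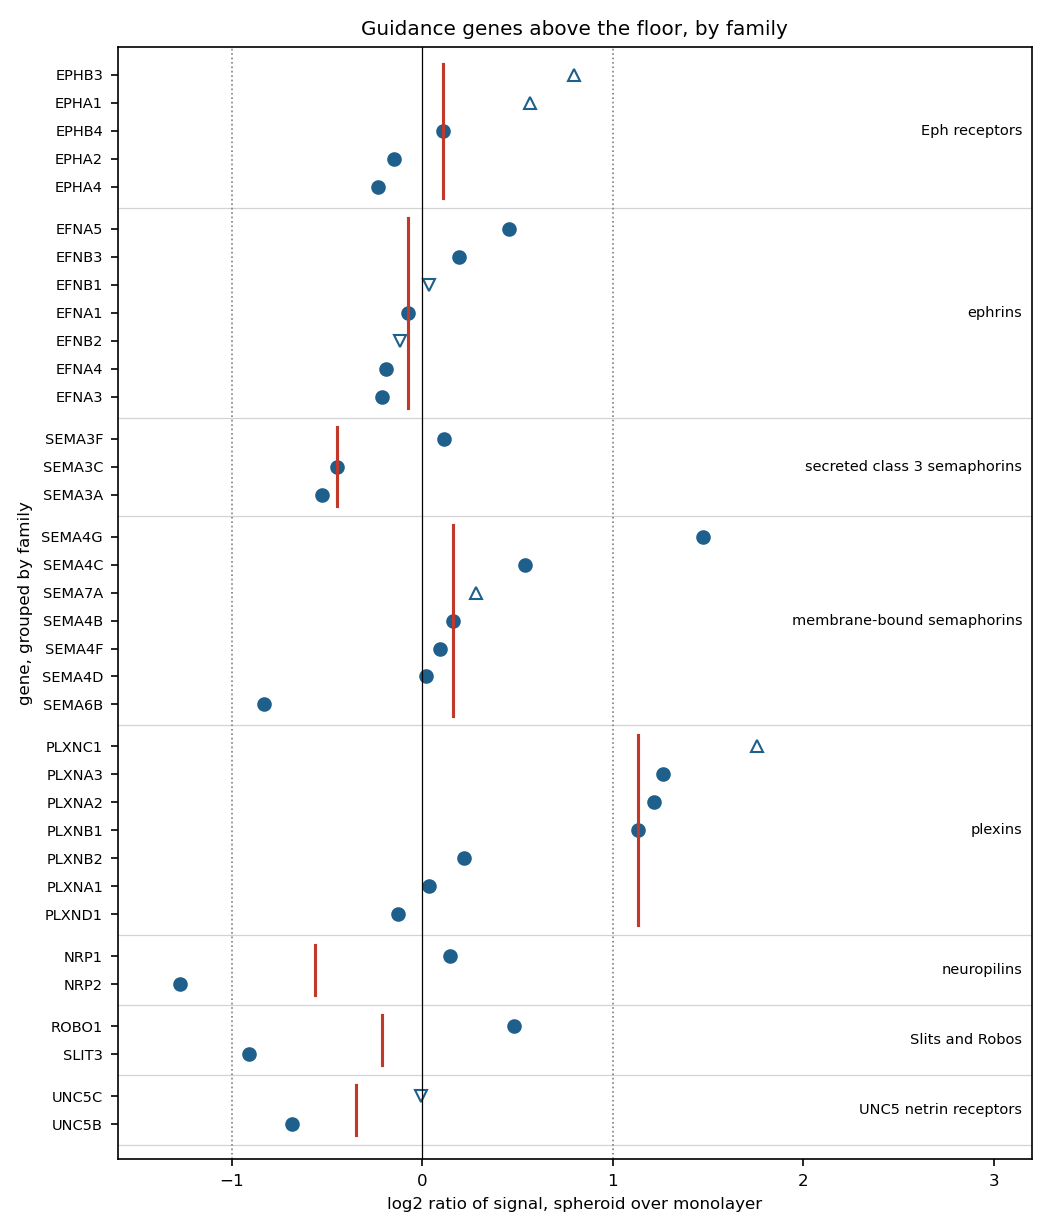
Log2 ratio of spheroid over monolayer signal (horizontal axis) for the 35 guidance genes above the floor, a row for each gene, grouped by family. Filled circles were above the floor in both cultures, open triangles pointing up in spheroid culture alone and pointing down in monolayer culture alone, for which the ratio is set against the floor of the other array. Red lines mark family medians and dotted lines 2-fold. The plexin median of 1.13 lies past the dotted line, which it did not without PLXNC1 (0.67) or in 5 of 7 other settings, and EFNB1 is drawn at 0.03 although its signal was lower in spheroid culture, because the floors differ.

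With no replicate, the spread between probe sets of the same gene gives a scale for these ratios. Over 5453 genes the ratios of the brightest pair of probe sets differed with an SD of 0.50 on the log2 scale, and by up to 1.01 in absolute terms for 95% of genes, against a robust SD of 0.53 for the ratios of all genes. For the 959 genes whose brighter probe set had a signal under 500, as in PLXNA2 and PLXNA3, the SD was 0.60 and the same limit 1.20. Pairs with a reading under the floor in either culture did not enter these figures. The scale therefore does not cover PLXNB1, with 1 probe set above the floor, or PLXNC1, whose brightest read 57.4 in the monolayer. The 2 probe sets of PLXNC1 that passed the floor in 1 culture had log2 ratios of 1.76 and -0.33, further apart than 1.20. These spreads describe probe sets on the same arrays and not the error between cultures.

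The sequence upstream of each gene at least 2-fold higher or lower is shown to place it in the genome and to set the start regions of the higher plexins side by side. Each line holds the 250 bases before the most upstream RefSeq start of the gene in GRCh38.p14, 5′ to 3′ on the strand of the gene. Capitals mark GC boxes, written GGGCGG or CCGCCC and counted on both strands, and neighbouring boxes can overlap. The GC box is the element read by transcription factors of the SP family.
PLXNA2: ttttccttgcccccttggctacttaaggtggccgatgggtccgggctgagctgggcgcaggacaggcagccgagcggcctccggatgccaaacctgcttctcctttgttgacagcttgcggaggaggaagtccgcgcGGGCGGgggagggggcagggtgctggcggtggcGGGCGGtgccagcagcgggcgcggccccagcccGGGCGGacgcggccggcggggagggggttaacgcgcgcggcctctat
PLXNA3: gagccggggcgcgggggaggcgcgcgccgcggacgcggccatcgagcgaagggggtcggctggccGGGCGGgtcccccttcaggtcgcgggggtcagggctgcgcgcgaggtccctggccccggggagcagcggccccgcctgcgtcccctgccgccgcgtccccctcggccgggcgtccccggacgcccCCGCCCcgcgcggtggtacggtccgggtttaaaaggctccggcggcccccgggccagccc
PLXNB1: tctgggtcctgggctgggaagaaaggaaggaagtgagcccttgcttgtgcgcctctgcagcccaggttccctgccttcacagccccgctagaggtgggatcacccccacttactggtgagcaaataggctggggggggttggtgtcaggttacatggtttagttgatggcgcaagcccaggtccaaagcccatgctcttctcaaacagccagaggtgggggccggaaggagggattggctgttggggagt
PLXNC1: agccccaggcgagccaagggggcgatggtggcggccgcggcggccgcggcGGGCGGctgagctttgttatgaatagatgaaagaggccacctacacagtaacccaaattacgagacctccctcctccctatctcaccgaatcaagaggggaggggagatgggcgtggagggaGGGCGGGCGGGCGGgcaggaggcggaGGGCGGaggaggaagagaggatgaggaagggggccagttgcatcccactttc
SEMA4G: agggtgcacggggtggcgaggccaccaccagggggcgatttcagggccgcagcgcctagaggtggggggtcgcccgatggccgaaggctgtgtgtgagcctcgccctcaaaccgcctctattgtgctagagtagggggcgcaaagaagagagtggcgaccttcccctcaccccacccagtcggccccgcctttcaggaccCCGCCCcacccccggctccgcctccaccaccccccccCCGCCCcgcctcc
NRP2: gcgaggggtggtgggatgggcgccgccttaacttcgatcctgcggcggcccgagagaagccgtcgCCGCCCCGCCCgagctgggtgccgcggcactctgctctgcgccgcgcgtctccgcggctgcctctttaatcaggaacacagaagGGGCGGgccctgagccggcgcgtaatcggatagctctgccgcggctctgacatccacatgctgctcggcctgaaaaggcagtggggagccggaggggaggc

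The window of PLXNA2 is chr1:208244385-208244634 on the minus strand, PLXNA3 at chrX:154458031-154458280 on the plus strand, PLXNB1 at chr3:48430087-48430336 on the minus strand and PLXNC1 at chr12:94148327-94148576 on the plus strand. The windows of SEMA4G and NRP2 are chr10:100969254-100969503 on the plus strand and chr2:205682251-205682500 on the plus strand. The PLXNC1 window held 5 GC boxes and the PLXNA2 window 3, whereas that of PLXNB1 held none. A GC box was found in 34 of the 45 members with a window (75.6%) and in 11520 of 27305 windows of all genes (42.2%). Those 27305 are all genes with a window and were not limited to the genes on the arrays. The median GC content was 66.4% in the members against 57.6%. A GC box was in 4 of the 5 genes at least 2-fold higher, in 21 of 25 other members above the floor and in 8 of 14 members at the floor. No member window held an AP-1 site, TGANTCA, against 6.57% of all windows. The other motifs counted were TGACGTCA, in 3 member windows (6.67%) against 1.75%, and CACGTG, in 3 (6.67%) against 6.46%. CCAAT was in 17 (37.8%) against 33.0%. A match is a run of letters and not a measured binding site. EFNB3, SEMA3A, SEMA6A, SEMA6B, NRP1 and UNC5B have no window here.

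PLXNC1, the plexin that binds SEMA7A, gave 57.4 in the monolayer and 366 in the spheroids. Set against the monolayer floor, the spheroid signal was at least 3.38-fold higher. A second probe set of PLXNC1 ran the other way, at 149 in the monolayer and 92.5 in the spheroids, a log2 ratio of -0.33 against the floor. The other 2 were at the floor, so the direction of PLXNC1 rests on the brightest of its 4 probe sets. PLXNC1 is also in the study's list of upregulated genes, which was drawn from these arrays and is no independent evidence.

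PLXNA3, a receptor for class 3 semaphorins together with a neuropilin, gave 143 in the monolayer and 342 in the spheroids, 2.40-fold higher. Its second probe set read 115 and 323, a log2 ratio of 1.49, and the remaining one was at the floor in both cultures. PLXNA3 was the only member whose probe sets above the floor, when there was more than 1, were all at least 2-fold higher. Over all genes this held for 140 of 6444 (2.17%).

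PLXNA2, a plexin of the same class, gave 188 in the monolayer and 436 in the spheroids, 2.32-fold higher. All 3 of its probe sets were higher in spheroid culture, one of the others at 143 and 336 and the remaining one at 7.89 and 151. PLXNB1, the receptor for SEMA4D, gave 154 in the monolayer and 337 in the spheroids, 2.19-fold higher. Its other probe set, at 14.5 and 78.0, was at the floor in both.

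The remaining plexins were within 2-fold. PLXNB2 read 1372 in the monolayer and 1596 in the spheroids, PLXNA1 938 and 959.7, and PLXND1 1616 and 1478, and their log2 ratios ran from -0.13 to 0.22. PLXNB3 was at the floor. In monolayer culture these 3 plexins lay well above the floor, whereas those at least 2-fold higher read between 57.4 and 188.

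The count of plexins depended on the floor and on how probe sets were joined. With the floor at the 75th percentile 3 plexins stayed above it and 0 were at least 2-fold higher. With the geometric mean of all probe sets of a gene, 0 of 7 passed, with log2 ratios of 0.98 for PLXNA2, 0.97 for PLXNA3, 0.63 for PLXNB1 and 0.43 for PLXNC1. That mean also takes in probe sets at the floor, whose ratio then is near 0 by construction. With each array divided by its median, PLXNB1 was just under the limit, at 0.99, and 3 of 7 passed. The family median of 1.13 became 0.67 with no floor or a floor at the 25th percentile, which bring in PLXNB3, 0.03 for the 75th percentile, 0.43 by the geometric mean and 0.99 after division by the median. It stayed past 2-fold with quantile normalization, at 1.02, and at 1.24 without probe sets that can bind several transcripts.

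**Figure D2:**
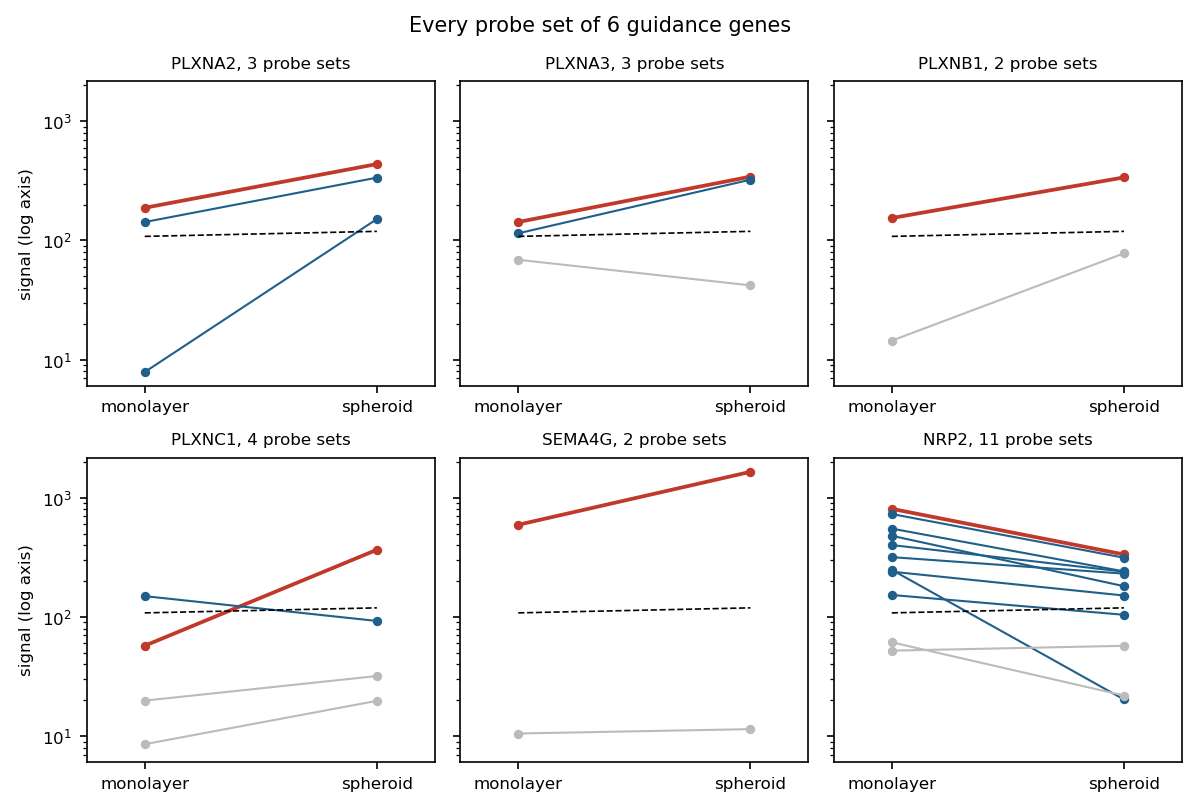
Signal (vertical log axis) of every probe set of 6 guidance genes in the monolayer and in the spheroids, 1 line per probe set. Red lines are the probe set that gave the value of the gene, blue lines other probe sets above the floor on at least 1 array, grey lines probe sets at the floor, and the dashed line the floor. All 3 probe sets of PLXNA2 run upward and the 9 coloured ones of NRP2 downward, while the coloured lines of PLXNC1 cross.

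NRP2, the co-receptor that binds SEMA3F and also vascular endothelial growth factor C, was lower in spheroid culture. It gave 805 in the monolayer and 334 in the spheroids, 2.41-fold lower. All 9 probe sets of NRP2 above the floor, of 11, were lower in spheroid culture, and 5 of them at least 2-fold. The next brightest probe sets read 729 and 314, and 549.7 and 241, and over the 8 others above the floor the median log2 ratio was -0.90. NRP2 was under the 2-fold limit with the floor at the 75th percentile, at -0.71, and with the geometric mean, at -0.73.

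NRP1, the co-receptor of SEMA3A, was at 3787 in the monolayer and 4184 in the spheroids, and 2 of its 4 probe sets were higher. The log2 ratio of NRP1 was 0.14, whereas the median over its 3 other probe sets was -0.46. With the geometric mean of probe sets NRP1 was at -0.20 and NRP2 at -0.73. The neuropilins thus had ratios of opposite sign on the probe sets used, but not by the geometric mean.

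Among the secreted class 3 semaphorins, which are ligands of these complexes, none was 2-fold different. SEMA3C read 6183 in the monolayer and 4532 in the spheroids, 1.36-fold lower, and its second probe set was lower too, at 1137 and 688. SEMA3A read 719 and 498, 1.44-fold lower, but its 2 other probe sets had a median log2 ratio of 0.04. SEMA3F, a ligand of NRP2, read 1898 and 2049, a log2 ratio of 0.11. Set side by side, NRP2 was lower and the probe sets of SEMA3F differed in sign, and PLXNA2 and PLXNA3 were higher while SEMA3A and SEMA3C were not.

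SEMA4G, a transmembrane class 4 semaphorin, gave 592 in the monolayer and 1644 in the spheroids, 2.78-fold higher. Its only other probe set was at the floor, at 10.6 and 11.5. The call was lost with the geometric mean of both probe sets, at a log2 ratio of 0.81, and when the floor was raised to the 75th percentile SEMA4G was the only member at least 2-fold higher.

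**Figure D3:**
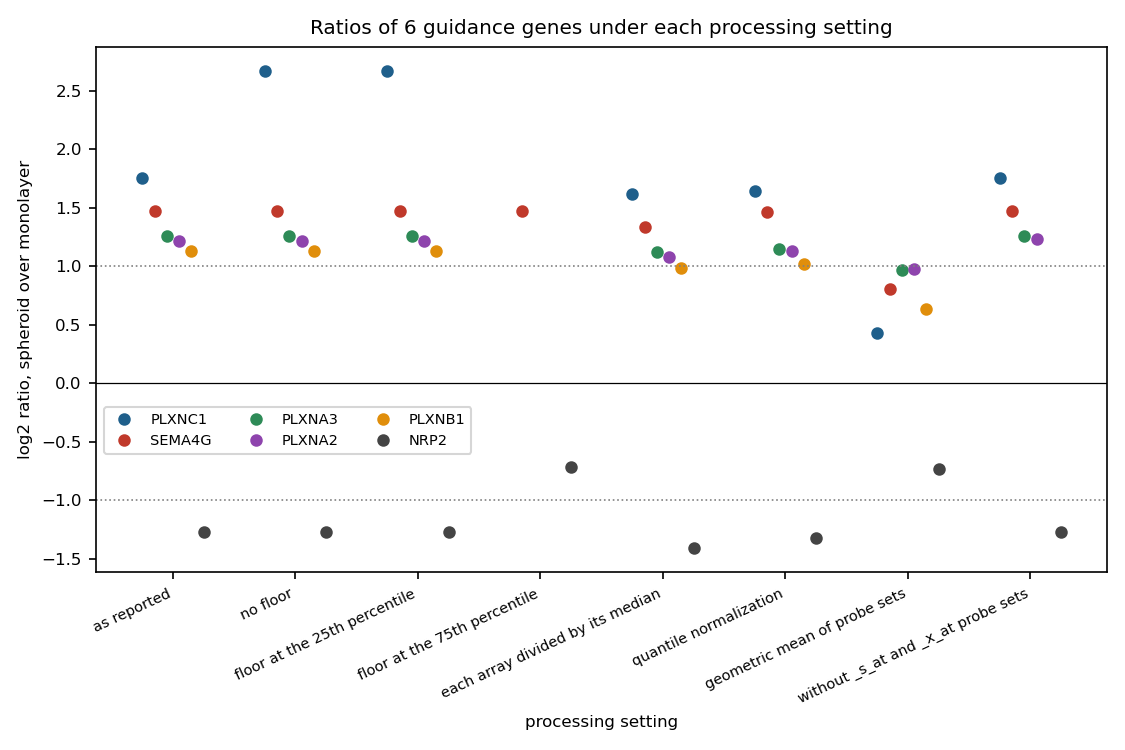
Log2 ratio of spheroid over monolayer signal (vertical axis) of the 6 guidance genes at least 2-fold different, under the setting reported and 7 others (horizontal axis). Dotted lines mark 2-fold, and a gene without a point was at the floor on both arrays or had no probe set under that setting. No gene changes sign, PLXNC1 ranges from 0.43 to 2.67 and NRP2 from -1.41 to -0.71.

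The other membrane-bound semaphorins were within 2-fold. SEMA4C, a ligand of PLXNB2, read 936 in the monolayer and 1361 in the spheroids, 1.45-fold higher, and its second probe set read 499 and 636. SEMA4D, the ligand of PLXNB1, read 322 and 327, so the receptor was higher while the ligand had a log2 ratio of 0.02. SEMA4B and SEMA4F, of the same class, had log2 ratios of 0.16 and 0.094.

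SEMA6B, a class 6 semaphorin that binds class A plexins, was the lowest of this family. It read 349 in the monolayer and 196 in the spheroids, 1.78-fold lower, and its other probe sets read 297 and 98.1, and 189 and 138. With probe sets that can bind several transcripts left out, SEMA6B passed the 2-fold limit. SEMA7A, the membrane-anchored ligand of PLXNC1, read 79.3 and 131, at least 1.21-fold higher, but its second probe set read 120 and 77.7.

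**Figure D4:**
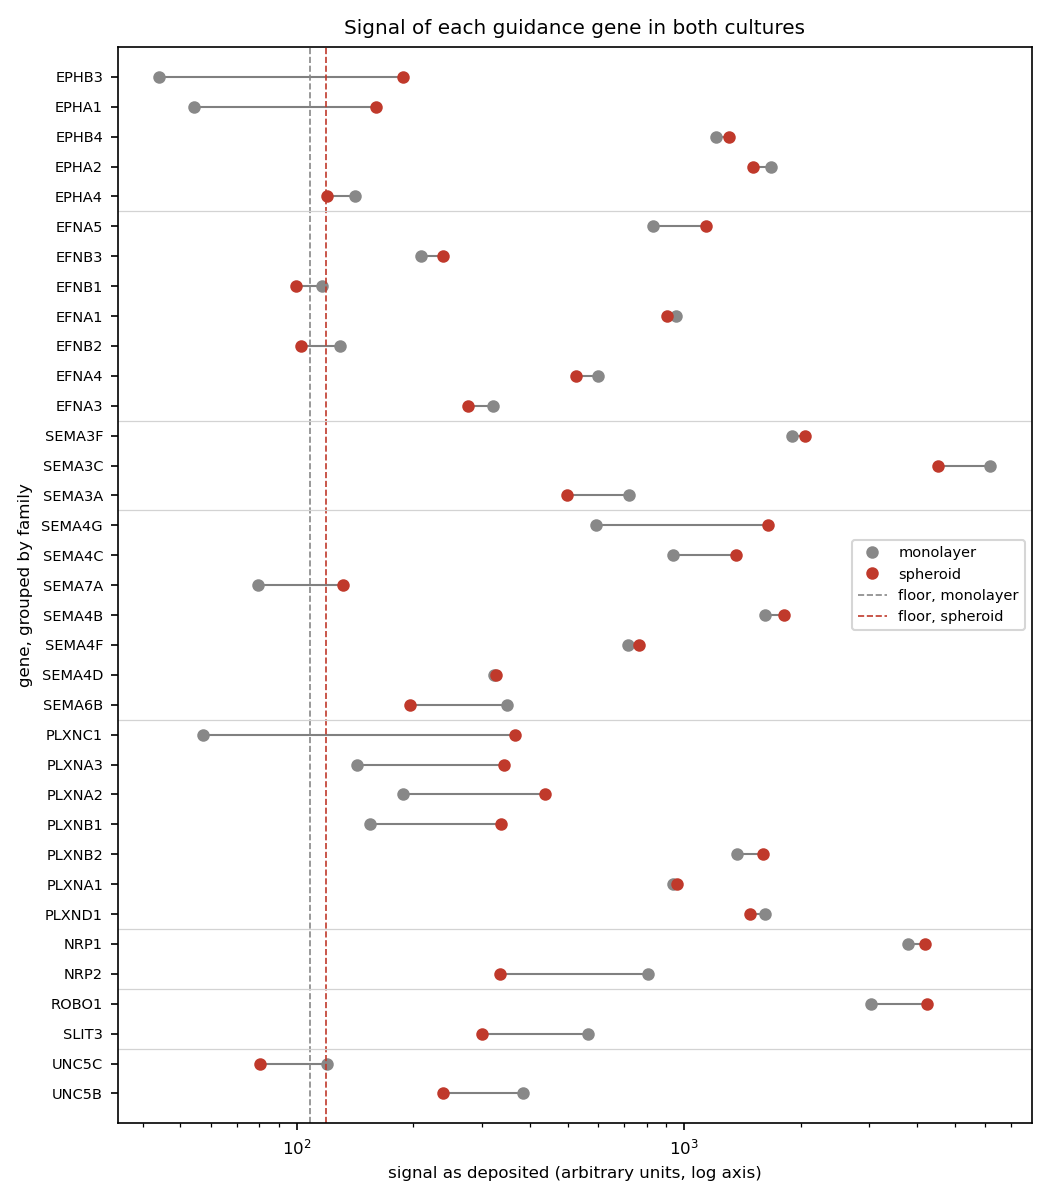
Signal as deposited (horizontal log axis, arbitrary units) of the 35 guidance genes above the floor, in monolayer (grey) and spheroid culture (red), with the floors of both arrays as dashed lines. Each row is a gene and rows are grouped by family. The 4 plexins at least 2-fold higher start near the floor in monolayer culture, and NRP2 shows the widest step in the other direction.

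No Eph receptor reached 2-fold. EPHA2, a receptor kinase often studied in carcinomas, read 1673 in the monolayer and 1507 in the spheroids, a log2 ratio of -0.15. Its ligand EFNA1 read 954 and 906, a log2 ratio of -0.07. This contact pair was thus measured well above the floor in both cultures with a difference under the spread between probe sets.

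EPHB4 read 1213 in the monolayer and 1308 in the spheroids, with probe sets of opposite sign. Its ligand EFNB2 read 129 and 102, at least 1.09-fold lower. EPHB3, another receptor of B-type ephrins, read 44.1 in the monolayer and 188 in the spheroids, at least 1.74-fold higher. The second probe set of EPHB3 read 35.9 and 137. EPHB3 and EPHA1, which read 54.3 and 160.0, passed the 2-fold limit when the floor was lowered to the 25th percentile. The other probe sets of EPHA1 were under the floor and lower in spheroid culture, at 49.3 and 17.5 and at 52.8 and 4.05. EPHB3, like PLXNC1, is in the list that the study made on these arrays.

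Of the ephrins, EFNA5 was the highest in spheroid over monolayer culture. EFNA5, a membrane-anchored ligand of EphA receptors, read 831 in the monolayer and 1140.4 in the spheroids, 1.37-fold higher. All 3 of its probe sets above the floor were higher, the others at 592 and 918 and at 551 and 581. The log2 ratios of EFNA3 and EFNA4 were -0.21 and -0.19 and that of EFNB3 was 0.19. EFNB1 read 116 and 99.6, and EPHA4, a receptor for both ephrin types, read 141 and 119.9, a log2 ratio of -0.23.

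ROBO1, the receptor for Slits, read 3032 in the monolayer and 4237 in the spheroids, an increase of 1.40-fold measured by a single probe set. SLIT3, one of its ligands, read 566 and 301, 1.88-fold lower. The second probe set of SLIT3 read 272 and 255, a log2 ratio of -0.09. SLIT3 passed the 2-fold limit with each array divided by its median, at -1.05. Ligand and receptor thus differed in sign, though the size of the difference in SLIT3 rested on 1 probe set.

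UNC5B, a receptor for netrins and for FLRT proteins, read 384 in the monolayer and 239 in the spheroids, 1.61-fold lower. A second probe set of UNC5B read 148 and 51.2. UNC5C read 119.9 and 80.4, at least 1.01-fold lower.

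Probe sets of one gene agreed in sign about as often for guidance genes as elsewhere. Of 20 members with more than 1 probe set above the floor, 6 were higher in all of them, namely EFNA5, EPHB3, PLXNA2, PLXNA3, SEMA4C and SEMA4F. In 5, NRP2, SEMA3C, SEMA6B, SLIT3 and UNC5B, all were lower, and 9 were mixed. That is 55% with a single sign, against 59.4% of 6444 genes.

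Ligands, co-receptors, proteases and intracellular partners of these pathways were read from 8 further lists. Of 116 genes measured, 97 were above the floor. Of these, 6 (6.19%) passed the 2-fold limit upward and 1 (1.03%) downward, beside 6.86% and 5.50% of all genes above the floor. Their median log2 ratio was -0.06. The signalling partners of semaphorins and plexins had 0 of 20 past 2-fold in either direction and a median of 0.18. The partners of Slits and Robos had 0 of 11, and the shared actin effectors 0 of 12. At the shares of all genes, lists this small can hold 0 such genes, so these counts are not read as a result about the lists. Of those 12 effectors 10 were lower, with a median of -0.15, beside 6249 of the 13229 genes above the floor.

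ITGA1, the alpha chain of the collagen-binding integrin that also binds SEMA7A, read 49.1 in the monolayer and 371 in the spheroids, at least 3.43-fold higher. Only 1 of the 3 probe sets of ITGA1 was above the floor. ITGA1 is in the study's list from these arrays as well. Set beside PLXNC1, both receptors of SEMA7A were higher on the probe set used, though the probe sets of PLXNC1 disagree, while ITGB1, the partner chain of ITGA1, had a log2 ratio of -0.31. L1CAM, an adhesion molecule that joins NRP1 in the SEMA3A receptor, read 157 and 429, 2.74-fold higher, with 1 of its 2 probe sets above the floor.

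FLRT3, an adhesion protein that binds UNC5B, read 1835 in the monolayer and 4169 in the spheroids, 2.27-fold higher, whereas UNC5B was lower. The 2 probe sets of FLRT3 were higher, 1 of them at least 2-fold. NTNG2, a membrane-anchored netrin with 1 probe set, read 124 and 316, 2.55-fold higher. NTN1, a secreted netrin, was at the floor in both cultures on the probe set used, but another of its 3 probe sets read 14.2 and 138, and NTN1 is in the study's list from these arrays. NTN4 read 3008 and 2166. MMP14, a membrane protease that can cut guidance receptors, read 165 and 344, 2.08-fold higher. Only 1 of the 4 probe sets of MMP14 was above the floor.

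GRIP1, a PDZ adaptor of B-type ephrins, read 127 in the monolayer and 337 in the spheroids, 2.65-fold higher, with 1 of its 2 probe sets above the floor. Of the 9 family relatives outside the 51 genes that were above the floor, none was at least 2-fold higher, beside 6.86% of all genes. With 9 genes this count is not read as a result about the relatives. EPHA5, an Eph receptor among them, read 646 and 262, 2.46-fold lower. It was the only gene of these lists at least 2-fold lower, and UNC5D, at 985 and 493, lay just inside the limit.

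**Figure D5:**
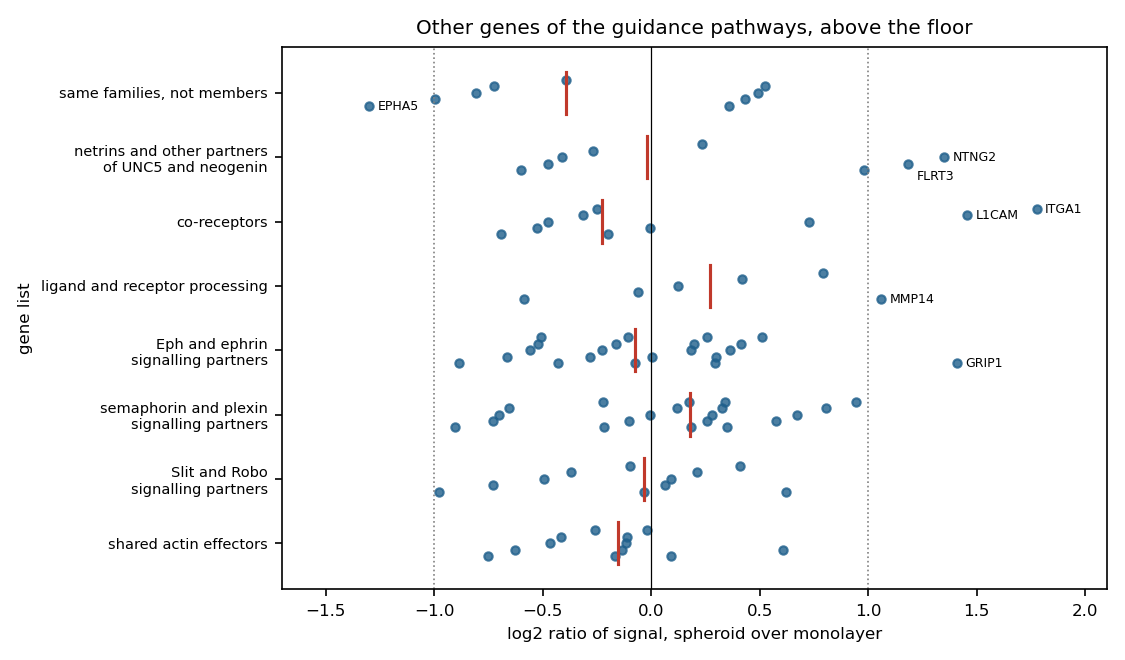
Log2 ratio of spheroid over monolayer signal (horizontal axis) of the 97 genes above the floor in 8 further lists of the guidance pathways, a row for each list. Each point is a gene, red bars mark list medians and dotted lines 2-fold. The 7 named genes lie past the dotted lines, 6 on the higher side and EPHA5 on the lower side, and every list median lies between them.

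Of 12 lung epithelial and A549 marker genes, 9 were above the monolayer floor and 11 above that of the spheroids, with summed signals of 204757 and 183108. Of the 11, 5 were higher and 6 lower in spheroid culture. KRT7 read 27459 in the monolayer and 7323 in the spheroids, and KRT19 191 and 889. NKX2-1 was at the floor in both. SFTPC, at 56.0 and 219, and NAPSA, at 45.3 and 272, were under it in the monolayer alone. Whether this list separates A549 from the hepatoma line was not tested. Markers of the hepatoma line named in the free-text note stood higher in spheroid culture, 4 of 9 against 6 of 9 above the floor, with summed signals of 2301 and 14900.2. ALB accounted for 23.4 and 4639 of these and APOH for 919 and 8136, GPC3, APOA2 and TTR were at the floor, and the part of these genes in the results was not tested. Neuron markers, of interest since axons use the same receptors, were above the floor in 5 of 8 genes in each culture, with summed signals of 7293 and 8038. On the probe set used for each gene, fibroblast markers were above it in 2 of 8, endothelial markers in 1 of 7 and leukocyte markers in 2 of 5 in monolayer and 1 of 5 in spheroid culture, with the leukocyte gene PTPRC at the floor in both. By any probe set, 4 of 8 fibroblast genes were above it on either array, with COL3A1 at 120 and 54.2 and LUM at 15.8 and 141, and the counts of the other marker lists were the same.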

How the data were processed

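The authors cultured A549 cells as monolayer or spheroids and hybridised 1 array per culture. The deposited values are signal intensities on a linear scale, from MAS5 and GCOS per the labels, whose versions are not given in the sources used here, and the study's methods name GeneSpring GX. Both arrays had a trimmed mean of 500.1, so no further scaling was done. Of 54675 probe sets, 41097 carried 1 gene, 1801 several and 11777 none. These counts include 62 controls, which were left out only when the floors were set. Symbols came from the platform annotation, 41043 updated through Entrez identifiers. A gene took its probe set of highest mean log2 signal. Signals under the floor, each array's median, were set to it, and genes at the floor on both arrays got no ratio. Ratios were described at 2-fold and 3-fold limits and no test was possible. The number of arrays limits the precision. Genes at least 2-fold different were named with both signals, other members by value or range, ligands beside their receptors, and up to 3 genes per direction from each other list. Members and lists were chosen with earlier results of these data known. Alternatives were no floor, floors at the 25th and 75th percentile, division by the median, quantile normalization, the geometric mean of probe sets, and leaving out probe sets ending in _s_at or _x_at. Scripts were tested on simulated data. The changes put in were larger than the ratios reported here, in genes of higher monolayer signal than any member at least 2-fold different. That test therefore does not cover calls near the floor or near 2-fold. Python 3.11.15, numpy 2.4.6, pandas 2.3.3 and matplotlib 3.10.9 were used.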

Additional observations from a re-analysis of the deposited data

How the results depend on the processing

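The 5 members at least 2-fold higher numbered 8 without a floor and 8 when it was set at the 25th percentile, where EPHA1, EPHB3 and EPHB6 were added, and then 1 at the 75th percentile and 0 by the geometric mean of probe sets. The share of all genes at least 2-fold higher moved as well, from 6.86% to 13.2% without a floor, 9.54% at the 25th percentile, 4.70% at the 75th and 4.56% by the geometric mean. The 1 member at least 2-fold lower numbered 2 without a floor, 2 with each array divided by its median, which added SLIT3, 2 without probe sets ending in _s_at or _x_at, which added SEMA6B, 0 for a floor at the 75th percentile and 0 by the geometric mean. The share of all genes at least 2-fold lower was 5.50% and in these settings 10.2%, 7.26%, 5.08%, 4.89% and 3.84%. The 1 member at least 3-fold higher numbered 2 without a floor, 2 for a floor at the 25th percentile, 0 at the 75th and 0 by the geometric mean. The 0 members at least 3-fold lower numbered 1 without a floor, EPHA3, whose signals were 15.0 and 3.06. The share of all genes past 3-fold was not computed in these settings, so the 3-fold counts there have no background and are not read as a result about the members. The median log2 ratio of the members, 0.094, came to -0.046 after division of each array by its median, which moved the median of all genes by -0.14. The geometric mean takes in probe sets at the floor, and a higher floor leaves fewer genes, 19 of the members at the 75th percentile. Quantile normalization kept all of these counts. No paired analysis was possible because there was 1 array per culture. Signals near the floor include the 4 higher plexins in monolayer culture. With 1 array per culture, no change of any size could be told from the error between cultures. The spread between probe sets does not measure that error.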
